A study of Homo sapiens with 5 samples.

Results

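NF-kappaB is a family of dimeric transcription factors, and the transcripts described here encode its subunits, the inhibitors that hold it in the cytoplasm and the kinase that releases it. The set held 10 genes, *RELA*, *RELB*, *REL*, *NFKB1*, *NFKB2*, *NFKBIA*, *NFKBIB*, *NFKBIE*, *IKBKB* and *IKBKG*, taken by name out of the 56632 genes in the tables whatever their values. All 10 had a mean FPKM (sequenced fragments scaled by transcript length and library size) of at least 1 over the 5 libraries, as did 11764 genes in all, which are the analysed genes below. *RELA* was also among 16 transcripts that the study picked for real-time PCR after RIP, so a high position of *RELA* here is not independent evidence.

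In the canonical pathway, receptors for tumour necrosis factor or interleukin 1 activate the IKK complex, which marks the IkB inhibitors for destruction and so frees the Rel dimers to enter the nucleus. The precursors p105 and p100, made from *NFKB1* and *NFKB2*, are cut to the DNA-binding subunits p50 and p52 and act as inhibitors while uncut. Several IkB proteins are themselves targets of NF-kappaB, which closes a feedback loop, and in breast epithelium the pathway is known for its part in inflammation and cell survival.

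RNA immunoprecipitation followed by sequencing (RIPseq) recovers the RNA that comes down with a protein and compares it with the RNA of the lysate, the input. All libraries came from untreated MCF10A, an established non-tumorigenic human breast epithelial line grown with insulin, EGF, hydrocortisone and cholera toxin. The groups were the input and the RIP with a FLAG antibody from MCF10A cells that express FLAG-CBFB (1 library each), the input of MCF10A cells without the tag, called parental here (1 library), and the RIP with an hnRNPK antibody from those cells (2 libraries, repeat 1 and repeat 2). CBFB is the partner subunit of RUNX1, hnRNPK binds RNA with a preference for runs of C, and the comparison asks which transcripts come down with each. The study made stable FLAG-CBFB lines from MCF10A cells that lack CBFB, but the labels do not say which line gave these libraries or how it was cloned. No mock immunoprecipitation was analysed here, and nothing says that the hnRNPK repeats came from separate cultures, so their spread may be technical.

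The libraries held 69786576 to 106855647 expected counts. Mitochondrial genes took 4.27% and 11.2% of the input counts, against 62.2% after FLAG-CBFB RIP and 84.5% and 86.6% after hnRNPK RIP. All 11 epithelial markers were above 1 FPKM in both inputs, and the 10 matched markers of other cells summed to 1.01 FPKM or less in every library. *CBFB* stood at 53.9 FPKM in the input of the FLAG-CBFB cells, beside 32.2 FPKM in the parental one. The difference in log2(FPKM + 1) between a RIP and its input averaged -1.34 over the analysed genes for FLAG-CBFB, and -2.61 and -2.68 for the hnRNPK repeats. Enrichment below is this log2 ratio minus its mean over the analysed genes (centred log2 enrichment), and a value above 2 is called more than 4-fold. On this scale *RUNX1*, the transcript at the centre of the study, stood at 2.13 for FLAG-CBFB and 3.09 for hnRNPK, *GAPDH* at -0.18 and -2.69, and *HNRNPK* itself at -0.59 and -2.59.

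For that preference, the reference transcripts (GENCODE 29, GRCh38) were searched for the motif CCCC on the strand of the mRNA, without overlaps. The stretch of 30 bases richest in C is shown for *RELA*, past 4-fold in both RIPs, and *REL*, past it for hnRNPK alone. It is also shown for *NFKBIA* and *NFKBIB*, members past it in neither, and for *BCL3*, the most enriched other gene of the pathway. Capitals mark runs of at least 3 C.
RELA: ctgcgaCCCCggCCCCgCCCCCgggaCCCC
REL: ctcggctctCCCCgctccgCCCCCtgCCCC
NFKBIA: ccgtgccgccgtCCCgCCCgccagcgCCCC
NFKBIB: gCCCtgcttcagCCCCgCCCCCggcgCCCC
BCL3: ccatcctcctcaCCCtCCCagtctCCCCCC

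The *RELA* stretch lies in the 5′ UTR, in exon 1 of 11 (chr11:65662837-65662866, minus strand). That of *REL* is also in the 5′ UTR, in exon 1 of 11 (chr2:60881575-60881604, plus strand), as is that of *NFKBIA*, in exon 1 of 6 (chr14:35404712-35404741, minus strand). The stretches of *NFKBIB* (exon 3 of 6, chr19:38905349-38905378, plus strand) and *BCL3* (exon 9 of 9, chr19:44759445-44759474, plus strand) lie in coding sequence. They hold 19 C in *RELA*, *NFKBIA* and *NFKBIB* and 20 in *REL* and *BCL3*, and 39.5% of 10582 protein-coding transcripts have a stretch with at least 19. In this count *RELA* equals *NFKBIA* and *NFKBIB*, which were not past 4-fold in either RIP.

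*RELA* encodes p65, the subunit with the main transactivation domain of the canonical dimer. Its level was 23.8 FPKM in the input of the FLAG-CBFB cells and 74.8 FPKM in the FLAG-CBFB RIP. In the parental cells it was 26.9 FPKM in the input, 47.7 FPKM in hnRNPK RIP repeat 1 and 28.0 FPKM in repeat 2. All 3 RIP values were above their own input, by 3.15 times for FLAG-CBFB and by 1.77 and 1.04 times for hnRNPK, which 442 of the analysed genes (3.76%) shared. The expected counts were 5888 and 16781 for the FLAG-CBFB pair, and 4445, 9393 and 5792 for the parental input and the hnRNPK repeats.

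The centred log2 enrichment of *RELA* was 2.95 in the FLAG-CBFB RIP (7.75-fold), and counting error alone gives it a 95% half-width of 0.043. With 1 library in each arm that comparison has no replicate error. The hnRNPK repeats gave 3.41 and 2.73, a mean of 3.07 ± 0.48 (SD, n = 2). Among the analysed genes, 2.10% were more enriched with FLAG-CBFB and 3.67% with hnRNPK. The mean transcript length that the authors list for *RELA* was 2080 bases in hnRNPK repeat 1 and 2458 in repeat 2, which enters the FPKM, and the counts scaled to the library total, which do not use it, were 91.2 and 64.0 per 1000000 against 63.7 in the input.

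The count test, which does not use FPKM, compared both hnRNPK repeats with the parental input by edgeR's quasi-likelihood test over 16639 genes. Its fold changes are relative to TMM scaling factors of the libraries, so a gene can rise in it while its FPKM falls. *RELA* rose by a log2 fold change of 4.06 (SE 0.41, edgeR adjusted p = 5.59e-21). When the input of the FLAG-CBFB cells was added as a second control library, the log2 fold change was 4.17 (edgeR adjusted p = 4.17e-05). The main form of this test takes its spread from the RIP repeats alone, since the input arm has 1 library. Without the mitochondrial genes in the FPKM, the centred log2 enrichment of *RELA* was 3.18 for FLAG-CBFB and 3.90 for hnRNPK. It was 1.61 and 0.43 without centring, and 1.93 and 1.04 when centred over all genes in the tables, which puts it under 4-fold.

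**Figure D1:**
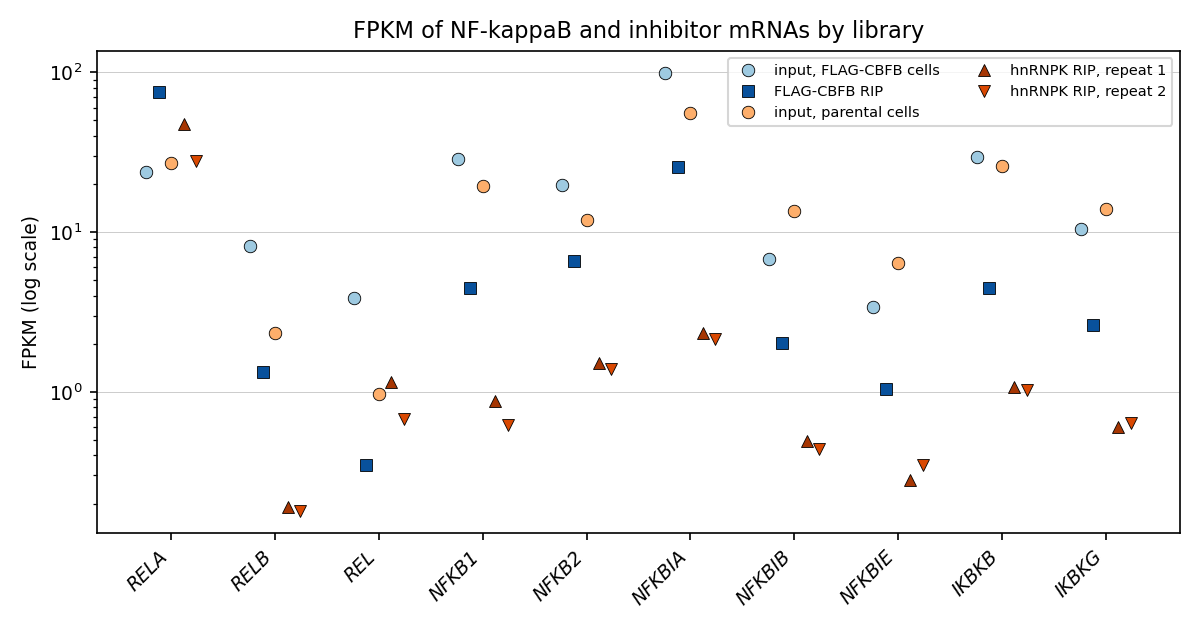
FPKM (log scale) of the 10 transcripts in each library, with circles for inputs, squares for the FLAG-CBFB RIP and triangles for the hnRNPK RIP repeats. *RELA* is the member whose RIP values, 74.8, 47.7 and 28.0 FPKM, all stand above its inputs, while most others drop below theirs.

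Of the study's real-time PCR assays, the one for *RELA* spans 73 bases of its coding sequence, from exon 3 to exon 4 of 11. The primers are printed because they fix which piece of the mRNA that assay reads.
forward: gcgagaggagcacagatacc
reverse: actgtccctggtcctgtgta

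Both lie on chromosome 11 of GRCh38, the forward primer at chr11:65661961-65661980 and the reverse primer at chr11:65661807-65661826. The sequencing values here are sums over the whole gene and cannot be limited to that piece.

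*REL* encodes c-Rel, a transactivating subunit best known from lymphocytes, and was weak in these cells. It stood at 3.87 FPKM in the input of the FLAG-CBFB cells and 0.35 FPKM in the FLAG-CBFB RIP (1082 and 88 expected counts). In the parental cells it stood at 0.97 FPKM in the input, 1.15 FPKM in hnRNPK repeat 1 and 0.68 FPKM in repeat 2 (179, 324 and 161 expected counts). So *REL* was about as high after hnRNPK RIP as before it, with the repeats on either side of the input, while the FLAG-CBFB RIP held 0.0904 times the level of its input.

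The centred log2 enrichment of *REL* was 2.59 ± 0.20 (SD, n = 2) in the hnRNPK RIP, from 2.74 and 2.45, and -0.51 in the FLAG-CBFB RIP. In the count test *REL* rose in the hnRNPK RIP by a log2 fold change of 3.71 (SE 0.49, edgeR adjusted p = 4.94e-13). This value depends on the input, since *REL* differed between the inputs, with more in the FLAG-CBFB cells (centred log2 ratio 1.34). With the input of the other cells the centred log2 enrichment was 1.26 for hnRNPK and 0.83 for FLAG-CBFB. With both inputs as controls the log2 fold change was 2.42 (edgeR adjusted p = 0.0184). Without centring the hnRNPK value was -0.052, under 0. On the centred scale a gene without signal also passes 4-fold for hnRNPK. *CSF2*, a listed target outside the analysed genes, had 0 FPKM in both repeats and 0.02 FPKM in the input. It stood at 2.62, so this scale alone does not set *REL* apart from an absent gene. The mean of 1.40 FPKM of *REL* passed the filter through the 3.87 FPKM in the input of the FLAG-CBFB cells.

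*RELB* encodes the subunit of the non-canonical pathway that pairs with p52. It measured 8.15 FPKM in the input and 1.33 FPKM in the RIP of the FLAG-CBFB cells, and 2.33 FPKM in the parental input and 0.19 and 0.18 FPKM in the hnRNPK repeats. Every RIP value was below its input. Its centred log2 enrichment was -0.63 with FLAG-CBFB and 1.15 ± 0.041 (SD, n = 2) with hnRNPK. The positive hnRNPK value comes with RIP levels far below the added 1 FPKM, at 30 and 26 expected counts against 278 in the input. With the input of the other cells both signs turned, to 0.86 for FLAG-CBFB and -0.34 for hnRNPK. With log2 CPM and TMM factors the hnRNPK value was -0.14, and the count test gave a log2 fold change of 0.0022 (SE 0.62, edgeR adjusted p = 0.998).

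Of the precursor transcripts, *NFKB1* was below the average gene in both RIPs. *NFKB1* (p105, cut to p50) measured 28.6 FPKM in the input and 4.46 FPKM in the RIP of the FLAG-CBFB cells. It measured 19.3 FPKM in the parental input and 0.87 and 0.62 FPKM in the hnRNPK repeats. Centred log2 enrichment was -1.10 for FLAG-CBFB, where 97.5% of the analysed genes were higher, and -0.90 ± 0.097 (SD, n = 2) for hnRNPK. *NFKB1* fell in the count test by 0.88 on the log2 scale (edgeR adjusted p = 0.0369), but with DESeq2 size factors in edgeR the adjusted p was 0.0612 and with DESeq2 it was 0.0932.

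*NFKB2* (p100, cut to p52) lay near the average gene. Its level was 19.8 FPKM in the input and 6.55 FPKM in the RIP of the FLAG-CBFB cells, and 11.8 FPKM in the parental input against 1.51 and 1.39 FPKM in the hnRNPK repeats. The centred log2 enrichment was -0.12 and 0.26 ± 0.00046 (SD, n = 2), and the count test gave a log2 fold change of 0.63 (edgeR adjusted p = 0.186).

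Among the inhibitors, *NFKBIA* (IkB alpha, the fast-turnover inhibitor that NF-kappaB itself induces) had the highest FPKM of the 10 transcripts in both inputs. It measured 99.4 FPKM in the input and 25.4 FPKM in the RIP of the FLAG-CBFB cells. In the parental cells it went from 55.3 FPKM in the input to 2.35 and 2.14 FPKM in the hnRNPK repeats. On the centred log2 scale its enrichment was -0.59 with FLAG-CBFB and -1.47 ± 0.017 (SD, n = 2) with hnRNPK. *NFKBIA* fell in the hnRNPK count test by 0.93 on the log2 scale (edgeR adjusted p = 0.0248), and DESeq2 gave an adjusted p of 0.0673.

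*NFKBIB* (IkB beta, a slower-turnover inhibitor) measured 6.80 FPKM and 2.02 FPKM in the input and RIP of the FLAG-CBFB cells. It measured 13.5 FPKM in the parental input and 0.49 and 0.44 FPKM in the hnRNPK repeats. Its centred log2 enrichment was -0.029 and -0.67 ± 0.015 (SD, n = 2), and the count test gave a log2 fold change of -1.02 (SE 0.44, edgeR adjusted p = 0.0509). *NFKBIE* (IkB epsilon) measured 3.39 and 1.04 FPKM in the FLAG-CBFB pair, and 6.42, 0.28 and 0.35 FPKM in the parental input and the hnRNPK repeats. Its centred log2 enrichment of 0.23 and 0.15 ± 0.10 (SD, n = 2) was close to the average gene, and the count test gave -0.34 (edgeR adjusted p = 0.647).

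For the kinase, *IKBKB* (IKK beta, the catalytic subunit of the canonical pathway) measured 29.7 FPKM and 4.44 FPKM in the input and RIP of the FLAG-CBFB cells. In the parental cells the values were 25.8 FPKM in the input and 1.07 and 1.03 FPKM in the hnRNPK repeats. Its FLAG-CBFB enrichment of -1.16 was the lowest of the 10, with 98.2% of the analysed genes higher, and the hnRNPK value was -1.06 ± 0.030 (SD, n = 2). The count test gave a log2 fold change of -0.38 (edgeR adjusted p = 0.426). The listed mean transcript length of *IKBKB* was 2301 bases in the parental input and 2894 to 3432 in the other libraries.

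*IKBKG* (NEMO, the regulatory subunit that binds ubiquitin chains) measured 10.5 and 2.63 FPKM in the FLAG-CBFB pair. It measured 13.9 FPKM in the parental input and 0.60 and 0.64 FPKM in the hnRNPK repeats. Its expected counts are not whole numbers, as happens for genes that share reads with a near-identical copy such as the *IKBKG* pseudogene, so these values are uncertain. The centred log2 enrichment was -0.32 and -0.55 ± 0.075 (SD, n = 2), and the count test gave -0.70 (edgeR adjusted p = 0.192).

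**Figure D2:**
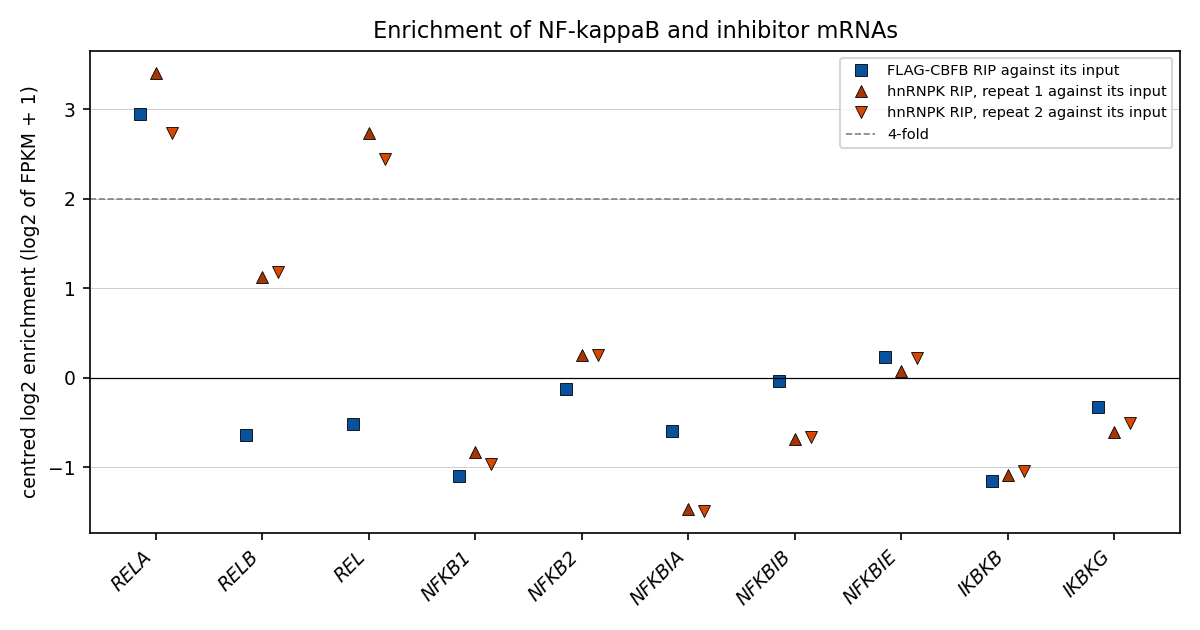
Centred log2 enrichment of each transcript over its own input, with a square for the FLAG-CBFB RIP and a triangle for each hnRNPK RIP repeat, and the dashed line at 4-fold. *RELA* is above the line in all 3 RIP libraries and *REL* in both hnRNPK repeats, while the FLAG-CBFB value of *REL* is -0.51.

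Over the 10 transcripts, 1 was above 4-fold in the FLAG-CBFB RIP (*RELA*), where 4.37% of all analysed genes were. In the hnRNPK RIP 2 were, against a background of 8.20%. These were *RELA* and *REL*, the latter no higher than *CSF2*, which had 0 FPKM in both repeats. In both RIPs 1 of the 10 was above 4-fold, against 3.79%. Their median centred log2 enrichment was -0.42 with FLAG-CBFB, beside -0.19 over all analysed genes, and -0.20 with hnRNPK, beside -0.11. By the count test 2 of 10 were higher in the hnRNPK RIP, where 21.9% of all genes tested were, and 2 of 10 were lower, where 15.8% were. The members spread over a wider range than the distance between these medians, from -1.16 for *IKBKB* to 2.95 for *RELA* in the FLAG-CBFB RIP and from -1.47 for *NFKBIA* to 3.07 for *RELA* in the hnRNPK RIP.

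The distance of *RELA* from the other members can be given without any centring. *RELA* stood 3.47 on the log2 scale above the median of the other 9 with FLAG-CBFB, and 4.02 and 3.23 above it with the hnRNPK repeats. Of the summed FPKM of the 10, *RELA* made up 10.2% and 15.3% before RIP, 60.8% after FLAG-CBFB RIP, and 84.8% and 78.9% after hnRNPK RIP. *NFKBIA* made up 42.5% and 31.4% before RIP, 20.6% after FLAG-CBFB RIP, and 4.18% and 6.04% after hnRNPK RIP. The FPKM of *RELA* over that of *NFKB1*, the partner subunit of the canonical dimer, was 0.830 and 1.40 before RIP, 16.8 with FLAG-CBFB, and 54.8 and 45.1 with hnRNPK.

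In the order of FPKM levels, *RELA* was in place 4 of 10 in the input of the FLAG-CBFB cells and 2 in that of the parental cells, and it came first in every RIP library. After *RELA*, at 37.8 ± 13.9 FPKM (SD, n = 2), the hnRNPK RIP order was *NFKBIA* (2.25 ± 0.15 FPKM) and *NFKB2* (1.45 ± 0.085 FPKM), with no overlap between repeats of neighbours. *IKBKB* at 1.05 FPKM, *REL* at 0.92 FPKM, *NFKB1* at 0.75 FPKM and *IKBKG* at 0.62 FPKM followed, and each of these overlapped the next. *MED15* (0.23) and *ABHD14B* (0.26) were among the 3 analysed genes closest to *RELA* over the 5 libraries, by root mean square difference in log2(FPKM + 1). Their centred log2 enrichment was 2.82 and 3.45 with FLAG-CBFB, and 3.35 and 3.04 with hnRNPK.

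The rest of the pathway was described through 60 listed genes, of which 59 were matched to the tables and 53 were among the analysed genes. In the FLAG-CBFB RIP 2 of the 53 were above 4-fold, both of them nuclear relatives of the IkB inhibitors, against 4.37% of all analysed genes. In the hnRNPK RIP 5 of the 53 were, against 8.20%, so both counts were near the background. The list's median centred log2 enrichment was -0.18 for FLAG-CBFB, beside -0.19 over all analysed genes, and 0.32 for hnRNPK, beside -0.11. In the count test 19 of 57 tested genes (33.3%) were higher in the hnRNPK RIP, where 21.9% of all genes tested were, and 3 (5.26%) were lower, where 15.8% were.

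*BCL3*, an atypical IkB that binds p50 or p52 dimers in the nucleus, was the highest of the list in both. It measured 8.33 FPKM in the input and 79.0 FPKM in the RIP of the FLAG-CBFB cells, a centred log2 enrichment of 4.44. In the parental cells it measured 9.76 FPKM in the input and 34.4 and 28.3 FPKM in the hnRNPK repeats, a centred log2 enrichment of 4.23 from 4.33 and 4.13. The count test gave a rise of 5.62 on the log2 scale (SE 0.46, edgeR adjusted p = 2.84e-32).

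*NFKBID*, another nuclear IkB, measured 3.72 and 9.49 FPKM in the FLAG-CBFB pair, an enrichment of 2.49. Its parental input of 5.33 FPKM and hnRNPK repeats of 3.68 and 3.94 FPKM gave a centred log2 enrichment of 2.25, and it rose in the count test by 3.67 on the log2 scale (edgeR adjusted p = 2.94e-15). In *NKIRAS2*, a small GTPase-like protein that interacts with IkB proteins, the enrichment was 1.20 for FLAG-CBFB and 2.65 for hnRNPK (log2 fold change 3.66, edgeR adjusted p = 7.72e-17). Of the 10 inhibitors and deubiquitinases listed beside the members, 5 rose in the hnRNPK count test (21.9% of all genes tested did). The 3 named here, *BCL3*, *NFKBID* and *NKIRAS2*, were the ones past 4-fold for hnRNPK (8.20% of all analysed genes were).

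Kinases and kinase adaptors had no gene past 4-fold in either RIP, where 4.37% (FLAG-CBFB) and 8.20% (hnRNPK) of all analysed genes were. In the hnRNPK count test 4 of 8 were higher and 1 was lower, against 21.9% and 15.8% of all genes tested. *TAB2* and *TAB3*, adaptors of the kinase TAK1 that bind ubiquitin chains, rose by 2.14 and 2.47 on the log2 scale (edgeR adjusted p = 2.88e-07 and 1.29e-08). These rises are relative to the scaling of the test, and the FPKM of both genes fell. *TAB2* went from 20.0 FPKM in the parental input to 6.74 and 6.17 FPKM in the hnRNPK repeats, and *TAB3* from 5.06 to 2.16 and 1.58 FPKM. *TBK1*, an IKK-related kinase, fell by 0.94 on the log2 scale (edgeR adjusted p = 0.0356). These were named after their values were seen.

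Among 26 receptors, adaptors and ubiquitin ligases, 8 were higher and 2 lower in the count test, against 21.9% and 15.8% of all genes tested. *TNFRSF1A*, the main receptor for tumour necrosis factor, measured 57.4 and 76.9 FPKM in the FLAG-CBFB pair, and 48.7, 49.7 and 40.3 FPKM in the parental input and the hnRNPK repeats. Its centred log2 enrichment was 1.76 for FLAG-CBFB and 2.53 for hnRNPK, and it rose in the count test by 3.58 on the log2 scale (edgeR adjusted p = 1.79e-17). *TNFRSF12A*, the receptor for TWEAK, was the lowest in the hnRNPK RIP, going from 207.7 FPKM in the input to 5.02 and 6.16 FPKM in the repeats, a centred log2 enrichment of -2.35 (log2 fold change -1.44, edgeR adjusted p = 1.82e-04). With both inputs as controls its adjusted p in edgeR was 0.352.

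*SKP1* and *CUL1*, parts of the SCF ubiquitin ligase that acts on phosphorylated IkB, were the next lowest, at -2.05 and -1.49. *CUL1* fell by 1.15 on the log2 scale (edgeR adjusted p = 0.00389), and *SKP1* had a log2 fold change of -0.49 (edgeR adjusted p = 0.261).

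Of 15 listed targets of NF-kappaB, 10 were among the analysed genes. In the FLAG-CBFB RIP 0 were above 4-fold (4.37% of all analysed genes were), and in the hnRNPK RIP 1 was (8.20%). That one was *BCL2L1*, which encodes the survival protein BCL-XL. It measured 22.2 and 33.4 FPKM in the FLAG-CBFB pair (centred log2 enrichment 1.91), and 27.3, 25.1 and 20.1 FPKM in the parental input and the hnRNPK repeats (2.37). In the count test it rose by 3.42 on the log2 scale (edgeR adjusted p = 7.9e-16). The lowest of the list in the FLAG-CBFB RIP were *SOD2*, the mitochondrial superoxide dismutase, at -1.94, *BIRC3*, a ubiquitin ligase of the receptor complex, at -1.39, and *TNFAIP3*, the deubiquitinase A20, at -1.10. With the parental input these were -0.35, 0.062 and 1.17.

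**Figure D3:**
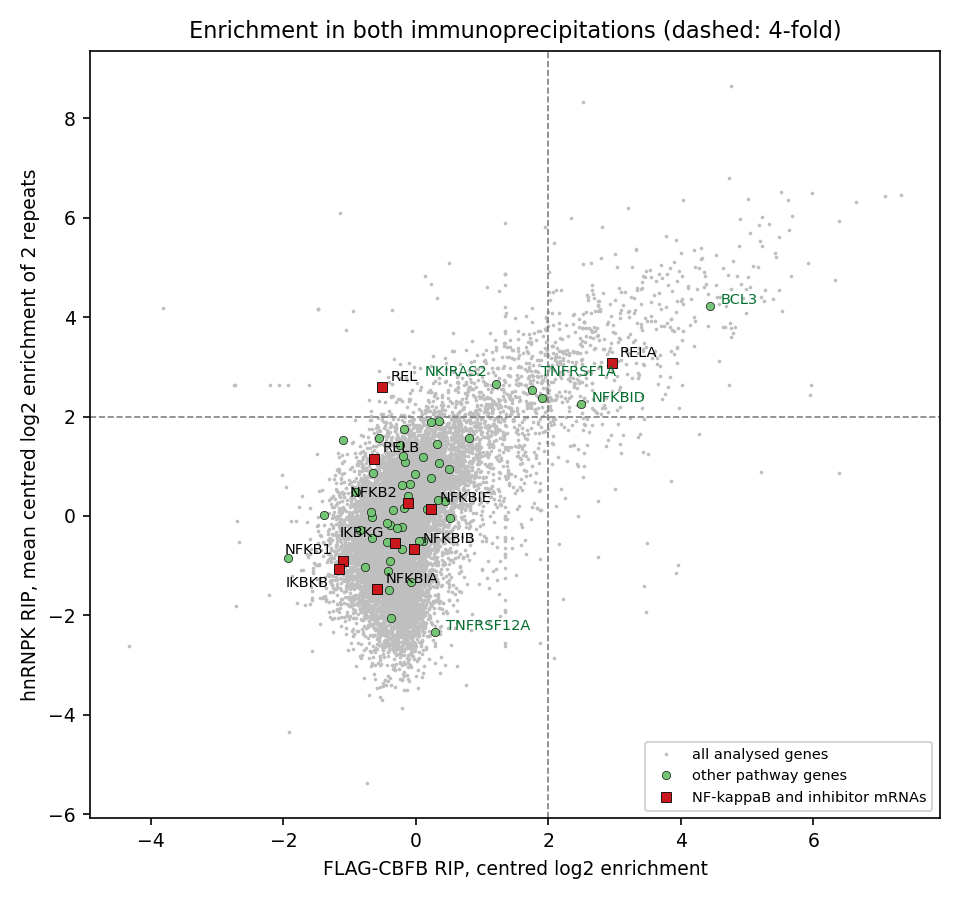
Centred log2 enrichment in the FLAG-CBFB RIP (horizontal) and mean of 2 repeats in the hnRNPK RIP (vertical) for 11764 analysed genes in grey, the 10 transcripts as red squares and 53 other pathway genes as green circles, with dashed lines at 4-fold. *RELA*, *BCL3* and *NFKBID* lie past both lines, and *REL* lies past the hnRNPK line alone with a FLAG-CBFB value of -0.51.

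The inputs differ before any immunoprecipitation, which bears on each enrichment that uses them. None of the 10 transcripts was past 4-fold between the 2 inputs, where 1.33% of the analysed genes were in either direction. Both *RELB* (centred log2 ratio 1.49) and *REL* (1.34) were more than 2-fold higher in the FLAG-CBFB cells, as were 4.70% of the analysed genes. *NFKBIA* (0.87), *NFKB2* (0.73) and *NFKB1* (0.58) were higher by less than 2-fold, *RELA* was at -0.14, and *NFKBIB* (-0.87) and *NFKBIE* (-0.73) were lower.

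The 10 analysed targets had a median centred log2 ratio of 1.34 between the inputs. Of them, 6 were more than 2-fold higher in the input of the FLAG-CBFB cells, where 4.70% of all analysed genes were. The 6 were *IL1B* (2.04), *CXCL1* (1.67), *IL1A* (1.61), *SOD2* (1.58), *CXCL2* (1.35) and *ICAM1* (1.33), named after their values were seen. They encode cytokines, chemokines, an enzyme and an adhesion receptor. The filter averages all 5 libraries, so a target can enter through its level in the FLAG-CBFB cells. *CXCL1* had 4.51 FPKM in that input and 0.77 FPKM in the parental one, and *ICAM1* had 6.17 and 1.92 FPKM. The targets left out ranged from -0.31 (*CXCL3*) to 0.79 (*CXCL8*), so the count and the median depend on the filter. The added 1 FPKM flattens ratios at such low levels. *CXCL8* had 1.73 FPKM in the input of the FLAG-CBFB cells and 0.61 FPKM in the parental one, and *CXCL3* had 0.55 and 0.96 FPKM. *TNFAIP3*, also a known NF-kappaB target, was higher by 2.27 on the log2 scale, at 11.1 FPKM against 1.55 FPKM. Each input is 1 library, so no test was possible, and cell line, tag and library cannot be told apart. With the parental input the FLAG-CBFB enrichment of the members turned positive for *REL* (0.83), *RELB* (0.86), *NFKB2* (0.61) and *NFKBIA* (0.28) and negative for *NFKBIE* (-0.49). With the input of the FLAG-CBFB cells the hnRNPK enrichment turned negative for *RELB* (-0.34) and *NFKB2* (-0.47) and positive for *NFKBIB* (0.20).

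**Figure D4:**
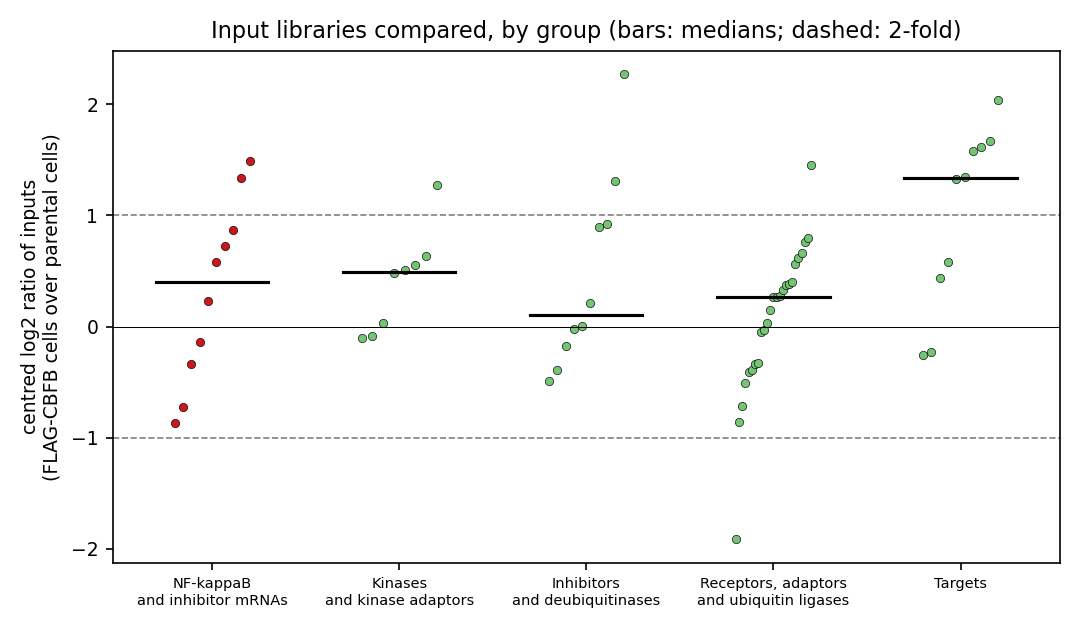
Centred log2 ratio of the input of the FLAG-CBFB cells to the parental input for each analysed gene, by group, with black bars at group medians and dashed lines at 2-fold. The median of the 10 targets that passed the filter on mean FPKM is 1.34. It is 0.40 for the NF-kappaB and inhibitor mRNAs, 0.49 for kinases, 0.11 for other inhibitors and 0.26 for receptors and adaptors.

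The density of CCCC, counted along the whole transcript, was 15.2 per kb in the reference transcript of *RELA* (41 runs in 2700 bases), and 1.10% of the 10582 protein-coding transcripts had as many or more. Of those runs 7 lay in the 5′ UTR, 27 in the coding sequence and 7 in the 3′ UTR. *BCL3* had 19.1 per kb (0.227% at or above) and *NFKBID* 14.7 per kb (1.31%). The median was 3.53 per kb over all these transcripts, 5.89 over the 10 members, 10.7 over the 380 with a FLAG-CBFB enrichment past 4-fold and 8.52 over the 748 past 4-fold for hnRNPK.

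Among the members, a high density did not always come with enrichment. *NFKBIB* had 15.5 runs per kb (18 runs in 1159 bases, 0.945% at or above), with an enrichment of -0.029 and -0.67. *REL* had 1.78 per kb (20 runs in 11255 bases, 76.5% at or above), with an enrichment of 2.59 for hnRNPK. Of its 20 runs 12 lay in a 3′ UTR of 9075 bases, and the mean *REL* transcript length that the authors list is 2790 to 2967 bases, which is shorter than this UTR. The other runs were 5 in a 5′ UTR of 320 bases (15.6 per kb) and 3 in 1860 coding bases (1.61 per kb). The density of *REL* therefore depends on the gene model, and its enrichment was no higher than that of *CSF2*, which had 0 FPKM in both hnRNPK repeats. Whether density bears on enrichment was not tested. *RELB*, *NFKB2* and *NFKB1* had 11.8, 9.35 and 2.69 per kb, and *NFKBIA* 3.85. CCCC occurs in 98.2% of the transcripts. Across these transcripts Spearman's rho between CCCC density and enrichment was 0.23 for FLAG-CBFB and 0.24 for hnRNPK. For the number of C in the richest stretch it was 0.078 and 0.32, and for transcript length -0.31 and 0.30. These are descriptions over genes that share libraries and base composition and are not independent replicates.

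**Figure D5:**
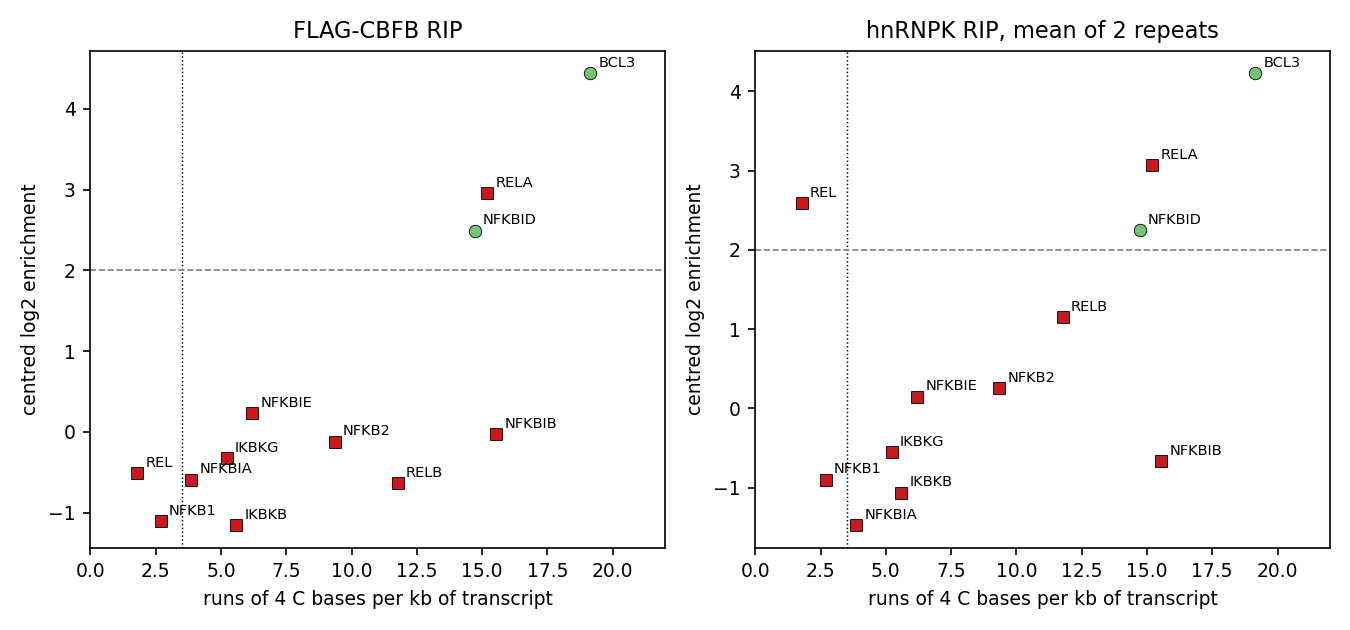
Runs of 4 C bases per kb of reference transcript (horizontal) against centred log2 enrichment (vertical) in the FLAG-CBFB RIP (left) and the hnRNPK RIP (right), with red squares for the members, green circles for *BCL3* and *NFKBID*, a dotted line at the median of all transcripts (3.53 per kb) and a dashed line at 4-fold. *RELA*, *BCL3* and *NFKBID* are rich in runs and past 4-fold in both, while *NFKBIB* at 15.5 per kb is not and *REL* at 1.78 per kb is past 4-fold for hnRNPK.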

How the data were processed

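Per the labels, Trizol-extracted RNA went into TruSeq mRNA libraries. The submitters' processing notes name Trimmomatic, STAR, RSEM and hg19; versions and annotation release were not given in the sources used here. The authors deposited 1 RSEM table per library, with expected counts (estimated reads per gene, not always whole) and FPKM (those counts scaled by effective length and library size). Symbols came from a gene name table and GENCODE 29 on GRCh38 (50276 by identifier, 1221 through transcripts, 5135 unnamed of 56632). Coordinates are those of GRCh38.

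Enrichment was log2(FPKM + 1) of the RIP minus its input, centred on the mean over genes averaging at least 1 FPKM, a scale that understates changes of weak genes before centring and raises them by the centring. Expected counts were rounded and tested with edgeR 4.0.16 (quasi-likelihood, TMM, filterByExpr, Benjamini-Hochberg) and, as an alternative, DESeq2 1.42.0. The scripts were tested on simulated data. Intervals cover counting error only. Members and lists were chosen with earlier results of these data known. Named genes were all members, *CBFB*, *HNRNPK*, *RUNX1*, *GAPDH*, the 3 highest and 3 lowest listed pathway genes per RIP with at least 50 expected counts, and the 3 genes nearest *RELA*, of which 1 is not reported here. Alternatives were other pseudocounts, centrings, filters, thresholds, scalings and inputs, and each hnRNPK repeat alone. A few hand-written symbols in an extra column of the FLAG-CBFB tables were not used.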

Additional observations from a re-analysis of the deposited data

Results flagged for a closer look

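The members, *CBFB*, *HNRNPK*, *RUNX1*, *GAPDH* and the 3 highest and 3 lowest pathway genes per RIP were compared by sign. Of these, 6 lay on one side of the average gene in the FLAG-CBFB RIP and on the other in both hnRNPK repeats. So did *TAB2* (-0.64 against 1.17 and 1.13), *TAB3* (-0.56 against 1.67 and 1.45) and *ICAM1* (-0.24 against 1.46 and 1.38), named after their values were seen. With 1 FLAG-CBFB RIP library the difference between the RIPs was not tested for any of them. The value given is the centred log2 enrichment in the FLAG-CBFB RIP minus the mean in the hnRNPK RIP. It was -3.10 for *REL* (-0.51 against 2.74 and 2.45), -1.79 for *RELB* (-0.63 against 1.12 and 1.18) and -0.37 for *NFKB2* (-0.12 against 0.26 and 0.26). Outside the set it was -2.63 for *TNFAIP3* (-1.10 against a mean of 1.53), 2.64 for *TNFRSF12A* (0.29 against -2.51 and -2.19) and 1.70 for *CBFB* (0.67 against -0.96 and -1.10). Against the parental input, which the hnRNPK RIP also uses, the FLAG-CBFB values were 0.83 for *REL*, 0.86 for *RELB*, 0.61 for *NFKB2*, 1.17 for *TNFAIP3* and -1.63 for *TNFRSF12A*, so these 5 then lay on the same side in both RIPs. The hnRNPK values of *RELB* and *TNFAIP3* come from RIP levels of 0.18 to 0.19 FPKM, and the count test called neither.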

How the results depend on the processing

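Every CBFB and input value rests on 1 library, and members below 1 FPKM in a RIP rest on few counts. No paired analysis was possible because only the hnRNPK RIP has more than 1 library. Without centring, 0 members were above 4-fold in either RIP, and 1 pathway gene was for FLAG-CBFB and 0 for hnRNPK. With centring over all genes, these counts were 0 members in either RIP and 1 pathway gene in each. For hnRNPK, 1 member (*RELA*) was above 4-fold among genes averaging at least 5 FPKM, and 1 with the input of the other cells. Pathway genes above 4-fold in the FLAG-CBFB RIP numbered 4 with log2 CPM and TMM factors, 4 with DESeq2 size factors, 5 with the input of the other cells and 5 at a 2-fold threshold. In the hnRNPK RIP they numbered 8 with a pseudocount of 0.1, 8 and 9 with those log2 CPM scalings and 18 at 2-fold.

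The median of the members in the FLAG-CBFB RIP, -0.42 as reported, was -1.76 without centring, -0.23 with median centring, -1.44 over all genes, -0.20 with log2 CPM and TMM factors, -0.17 with DESeq2 size factors and -0.11 with the input of the other cells. For FLAG-CBFB, the median over the genes each setting kept moved over these from -0.19 to -1.53, 0, 0.32, -0.037, -0.00072 and -0.17. With the input of the other cells the median of the members was thus above that of all analysed genes. In the hnRNPK RIP, -0.20 became -0.69 with a pseudocount of 0.1, -2.85 without centring, -0.095 with median centring, -2.24 over all genes, -0.63 without mitochondrial genes, and -0.50 and -0.35 with the log2 CPM scalings. For hnRNPK, the median over the genes each setting kept moved over these from -0.11 to -0.42, -2.75, -0.0015, 0.61, -0.38, -0.45 and -0.30. Leaving out an hnRNPK repeat gave a median of -0.27 to -0.14, 2 members and 5 to 6 pathway genes above 4-fold. Between inputs 2 members were past a 2-fold threshold and 0 past 4-fold in the alternatives run. The count test called 4 members, 3 with DESeq2 size factors, 5 without a filter, 4 with both inputs and 2 with DESeq2 (*RELA* and *REL*). Without centring, hnRNPK values past 4-fold turned negative for *REL* (-0.052), *NFKBID* (-0.40), *BCL2L1* (-0.27) and *TNFRSF1A* (-0.12). Smaller positive values turned negative for *RELB* (-1.49), *TNFAIP3* (-1.11), *NFKB2* (-2.39), *NFKBIE* (-2.50) and *BIRC3* (-2.62) with hnRNPK, and for *NFKBIE* (-1.11), *NKIRAS2* (-0.14) and *TNFRSF12A* (-1.05) with FLAG-CBFB.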
